A study of Sus scrofa with 30 samples.

Results

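The genes described here code for collagens, laminins and glycoproteins of the extracellular matrix in single pig embryos of Days 8, 10 and 12. They were chosen by symbol only. A gene entered if its pig NCBI symbol was that of a collagen chain, a laminin chain, a nidogen, a fibulin, a fibrillin, a thrombospondin or a lysyl oxidase, or was HSPG2, FN1, VTN, SPARC, TNC, AGRN, ECM1 or SPP1. By this rule 43 of the 13103 genes in the table of all embryos were members. One of them, COL4A3BP, codes for a ceramide transfer protein and shares only the start of its name with a collagen, which left 42 matrix genes. Of these, 16 belong to the basement membrane and 14 to the interstitial matrix, while 7 adhesive or matricellular glycoproteins and 5 network, anchoring or transmembrane collagens were placed on neither side. The rule covers 82 symbols of the RefSeq gene table of Sscrofa11.1, the assembly used by the authors. The other 39, among them COL1A1, COL1A2, COL3A1, COL6A2, LAMA2, LAMA4, LOX and THBS1, were not analysed here. Genes entered the table only above a cutoff on CPM (the reads of a gene scaled to the size of the library), so a gene that passed through 1 day alone had to differ between days, and the counts of members given here describe the listed genes only. In the separate tables of each day, FBN2 and COL11A1 were present on Day 10 alone, and LOXL4, VTN, COL8A2 and THBS3 on Day 12 alone. LAMA3, LAMB3, SPP1 and COL17A1 were absent on Day 8 alone, COL21A1 on Day 10 alone and COL5A2 on Day 12 alone. COL12A1, THBS2, FBN1 and FBLN5 were in none of the tables of single days. Any call of these genes between days may follow in part from the cutoff.

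RNA-seq was carried out on 30 whole embryos of Days 8, 10 and 12 after insemination, 5 of each sex per day. The embryos were flushed from the uteri of cycle-synchronized German Landrace × Pietrain gilts, 4 per day, all bred to 1 Pietrain boar. Each embryo held the embryonic disc and the trophectoderm together. By the study's methods each day included littermates, at least 1 female and 1 male of the same gilt. The gilt of a given embryo is not stated, so litter could not enter the tests. Each gilt gave embryos of 1 day only, so differences between days cannot be told apart from differences between the 4 gilts of each day. The tests took the embryos as independent. Their p-values rest on the spread between these embryos, take no account of litter and may be too small. From 6068212 (female embryo d12_f_245 of Day 12) to 34002508 reads were counted on genes per embryo, so that 3 reads, taken here as the floor, were worth 0.0823 to 0.434 CPM.

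A basement membrane is a thin sheet on which epithelia rest. Laminin trimers of 1 alpha, 1 beta and 1 gamma chain bind to the cell surface and polymerise, type IV collagen forms a second network, and nidogens, perlecan and agrin join both. The interstitial matrix lies between cells and is built of fibrillar collagens, fibronectin, fibrillins and fibulins, and lysyl oxidases crosslink it. In the early embryo of mammals the epithelia that rest on a basement membrane are the epiblast, the trophectoderm and the hypoblast, and hypoblast-derived endoderm is a known source of laminin and type IV collagen.

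Of the 43 genes, 25 rose and 5 fell between Day 10 and Day 12, against 14.9% and 8.39% of all 13103 genes. A gene was called in a comparison of days when the edgeR quasi-likelihood test gave both a false discovery rate (FDR) below 0.001 and a log2 fold change of more than 1 in either direction. CPM values here were scaled with TMM factors. Between Day 8 and Day 10 only 6 members rose and 2 fell, against 9.88% and 4.2% of all genes, or 70.2% of all calls higher (55.9% with library size alone as the scaling, under which the members' counts were the same). Over both intervals, from Day 8 to Day 12, 27 rose and 3 fell, against 22% and 10.4%. The median log2 fold change of the 42 matrix genes was 1.45 from Day 10 to Day 12, where that of all genes was 0.043, and 0.16 from Day 8 to Day 10, where that of all genes was 0.029. The commonest course was no call from Day 8 to Day 10 and a rise by Day 12, seen in 23 members and in 1585 of all genes. No call in either interval was made for 11 members and for 9021 of all 13103 genes. The embryos of Days 10 and 12 did not overlap in 15 members (16.6% of all genes), those of Days 8 and 10 in 7 (22%) and those of Days 8 and 12 in 16 (31.7%). The comparisons share the embryos of a day, so their counts are not independent of each other. Because whole embryos were sequenced, more cells of a type and more RNA per cell cannot be told apart in any of these values.

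**Figure D1:**
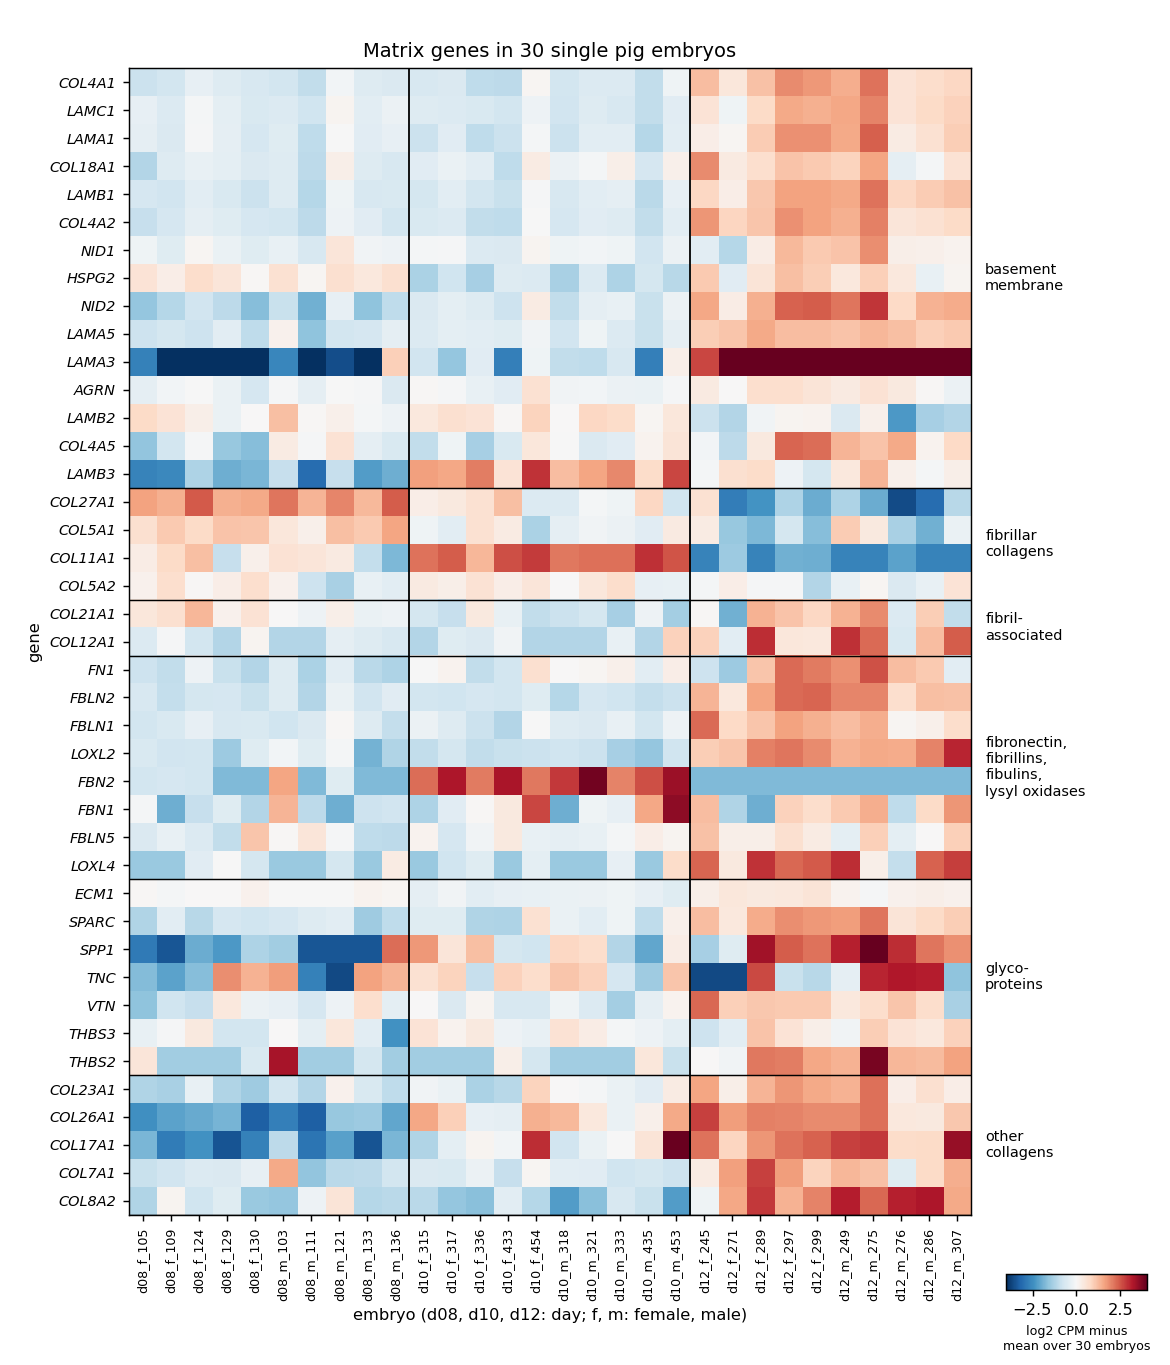
Level of 41 matrix genes in each of the 30 embryos, as log2 CPM minus the mean of the gene over all embryos (colour, saturated beyond 4 in either direction), with genes in rows by class and embryos in columns by day and sex. Most basement membrane rows turned from blue to red at Day 12, while COL27A1 faded from Day 8 on and COL11A1 and FBN2 stood out on Day 10.

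Both main chains of type IV collagen, COL4A1 and COL4A2, were not called from Day 8 to Day 10 and rose by Day 12. COL4A1 (NCBI Gene 100515336, chr11:76858332-76997409) ranged from 246 to 451 CPM (median 319.8) on Day 8, 235 to 519.8 (median 320.5) on Day 10 and 668 to 2218 (median 1133) on Day 12. COL4A2 (NCBI Gene 100153454, chr11:76996885-77161617), with which COL4A1 forms the common collagen trimer of basement membranes, ranged from 129.7 to 236 CPM (median 168) on Day 8, 132.8 to 269 (median 181) on Day 10 and 374 to 1097 (median 656) on Day 12. For both genes the lowest embryo of Day 12 lay above the highest of Day 10, and COL4A1 rose by 1.91 ± 0.19 (SE; adjusted p = 4.26e-10) and COL4A2 by 1.93 ± 0.18, adjusted p = 5.50e-11 on the log2 scale. From Day 8 to Day 10 they were 0.006 ± 0.18 and 0.019 ± 0.17. The ratio of COL4A1 to COL4A2 reads had medians of 1.85, 1.78 and 1.89 on the 3 days, a ratio of read numbers that carries the lengths of both transcripts. The annotated spans of these neighbours overlap by 525 bases, and since the strand setting of the counting is not given, reads of that stretch cannot be assigned with certainty. COL4A5 (NCBI Gene 100737091, chrX:88958837-89183306), an X-linked chain of other type IV trimers, was far scarcer, with 1.14 to 5.95 CPM (median 2.80) on Day 8, 1.51 to 5.60 (median 3.13) on Day 10 and 1.86 to 19.9 (median 7.86) on Day 12. Its Day 12 values overlapped those of Day 10, and it was called higher from Day 10 to Day 12 (1.42 ± 0.35, adjusted p = 9.39e-04). That call was lost in 18 of the 30 fits that left out 1 embryo, with log2 fold changes of 1.22 to 1.47 in these and adjusted p-values up to 0.00346, the highest without female embryo d12_f_297.

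Of the laminin chains, LAMA1, LAMB1, LAMC1 and LAMA5 rose by Day 12 like COL4A1 and COL4A2, and LAMB2 fell. LAMA3, of the epithelial anchoring laminin, had the same calls in both intervals as the former 4 chains, while LAMB3 rose by Day 10 and then fell. LAMA1, the alpha chain of the first laminin of the embryo (NCBI Gene 100625589, chr6:100332843-100468457), ranged from 180.0 to 358 CPM (median 273) on Day 8, 164 to 346 (median 233) on Day 10 and 381 to 1889 (median 720.4) on Day 12. LAMB1 (NCBI Gene 396707, chr9:107670120-107747242), its beta chain, ranged from 137 to 269.7 CPM (median 197) on Day 8, 144 to 292 (median 210.3) on Day 10 and 365 to 1376 (median 660.3) on Day 12. LAMC1 (NCBI Gene 100514785, chr9:124283668-124405967), the gamma chain shared by most laminins, ranged from 276.2 to 515 CPM (median 361) on Day 8, 243 to 419 (median 321.5) on Day 10 and 427 to 1900.1 (median 866) on Day 12. In all 3 the embryos of Day 12 lay above every embryo of Day 10, and LAMA1 rose by 1.89 ± 0.23, adjusted p = 2.11e-08, LAMB1 by 1.84 ± 0.17, adjusted p = 9.36e-11 and LAMC1 by 1.69 ± 0.18, adjusted p = 1.80e-09. LAMA5 (NCBI Gene 110257482, chr17:61698370-61747795), the alpha chain typical of mature epithelial basement membranes, ranged from 36.8 to 127 CPM (median 68.6) on Day 8, 61.5 to 103.2 (median 82.9) on Day 10 and 219.9 to 326 (median 256) on Day 12. Its Day 12 embryos lay close together and above every earlier embryo, and it rose by 1.63 ± 0.14 (SE) on the log2 scale (adjusted p = 1.57e-11). None of these 4 chains was called between Day 8 and Day 10, where their log2 fold changes lay between -0.21 and 0.18. LAMB2 (NCBI Gene 101101688, chr13:31738282-31750623), a beta chain that can take the place of LAMB1, went the other way, with 7.61 to 21.3 CPM (median 10.1) on Day 8, 9.30 to 17.3 (median 13.02) on Day 10 and 1.80 to 10.499 (median 5.57) on Day 12. It fell from Day 10 to Day 12 (-1.03 ± 0.24, adjusted p = 5.05e-04), close to both limits of the call: with library size alone as the scaling the log2 fold change was -0.81, and leaving out 1 of 8 embryos (d10_f_454, d10_m_321, d10_m_333, d12_f_245, d12_f_271, d12_m_276, d12_m_286 or d12_m_307) ended the call, with values of -0.92 to -1.004. The ratio of LAMB1 to LAMB2 reads had medians of 19.6, 15.8 and 119.5 over the 3 days, and its lowest value on Day 12, 76.4, was above the highest of the earlier days, 26.4.

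LAMA3 and LAMB3 code for chains of the laminin that anchors epithelia through hemidesmosomes, and in these embryos they did not move together. LAMA3 (NCBI Gene 100511642, chr6:108548818-108805700), the alpha chain, ranged from 0 to 12.2 CPM (median 0.286) on Day 8, 0.863 to 7.48 (median 3.38) on Day 10 and 40.2 to 611 (median 167) on Day 12. On Day 12 every embryo had at least 40.2 CPM and on Day 10 none had more than 7.48, and the rise of 5.90 ± 0.69 (SE) was the steepest of all members from Day 10 to Day 12 (adjusted p = 1.19e-08). On Day 8 male embryo d08_m_136 stood apart with 12.2 CPM, where the other 9 had at most 0.960. LAMA3 was not called from Day 8 to Day 10 with it (1.10 ± 0.64, adjusted p = 0.146) but was without it (3.13, adjusted p = 1.11e-05), and its rise from Day 8 to Day 12, 7.01 ± 0.74 with all embryos, became 9.04. LAMB3 (NCBI Gene 100736655, chr9:133298009-133351162), the beta chain, ranged from 0.197 to 1.16 CPM (median 0.524) on Day 8, 3.36 to 17.4 (median 7.16) on Day 10 and 1.35 to 6.01 (median 2.69) on Day 12. Its embryos of Day 10 lay above all of Day 8, with a rise of 3.79 ± 0.35 (SE; adjusted p = 1.77e-10), and it fell again by Day 12 (-1.52 ± 0.31, adjusted p = 8.96e-05).

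**Figure D2:**
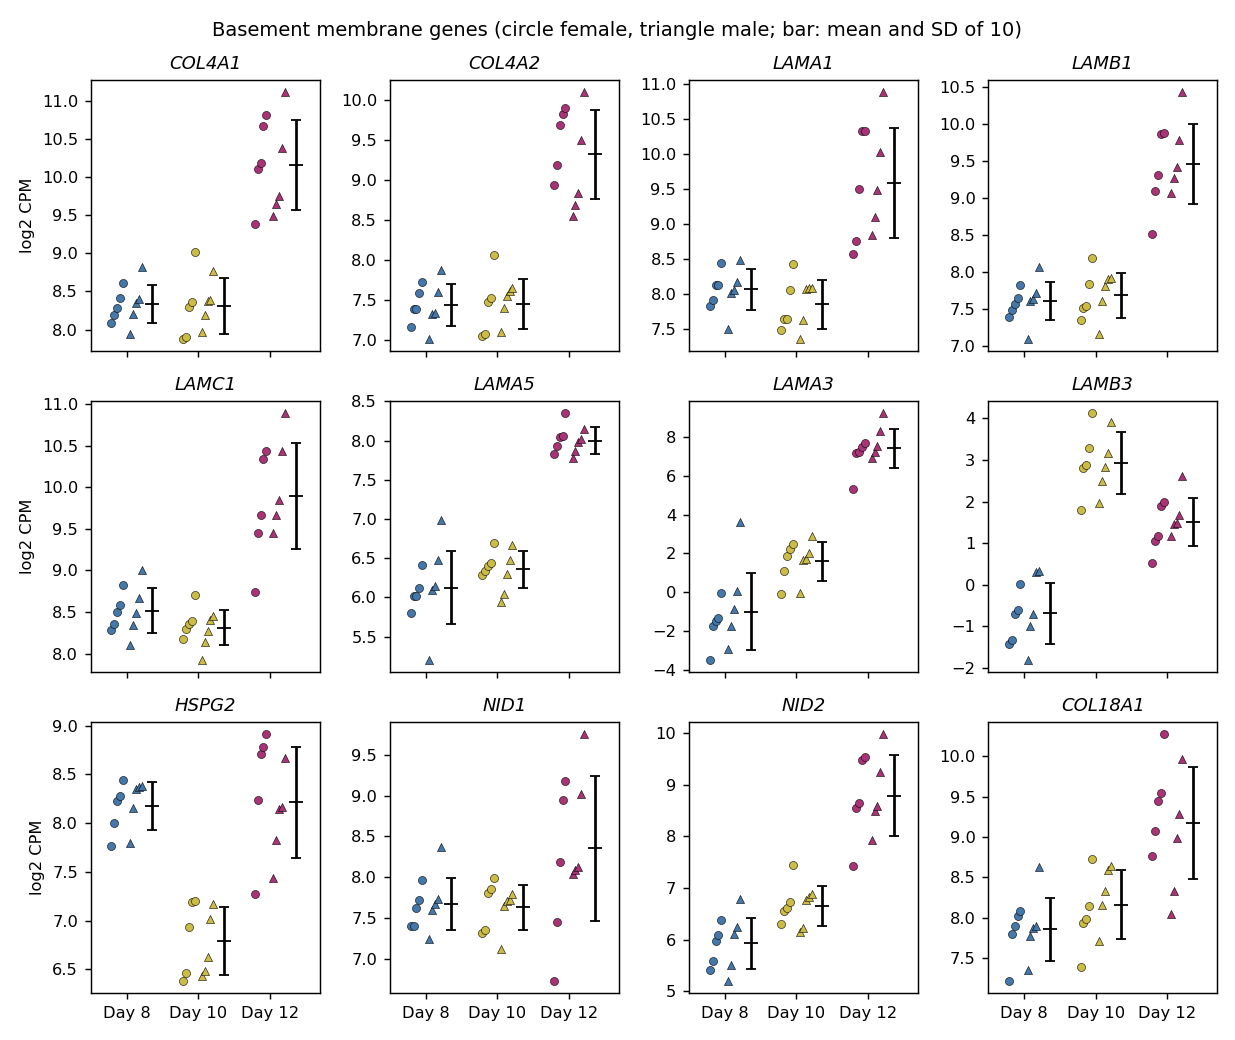
Level of 12 basement membrane genes in log2 CPM on each day, 1 point per embryo (circles female, triangles male), with the mean and SD of the 10 embryos of a day beside them. COL4A1, COL4A2, LAMA1, LAMB1 and LAMC1 were called higher from Day 10 to Day 12 and not from Day 8 to Day 10, LAMB3 was highest on Day 10, and HSPG2 was lowest on Day 10.

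The proteins that link the laminin and collagen networks followed 3 courses. NID2 (NCBI Gene 100156994, chr1:181699098-181773084), a nidogen, ranged from 36.8 to 110.8 CPM (median 65.0) on Day 8, 70.3 to 174 (median 102) on Day 10 and 172 to 1016 (median 395) on Day 12. It rose by 2.28 ± 0.25 (SE) from Day 10 to Day 12 (adjusted p = 3.70e-09), with 1 embryo of Day 12 below the highest of Day 10. NID1 (NCBI Gene 100511351, chr14:55239327-55346948), the other nidogen, ranged from 151 to 331 CPM (median 200.4) on Day 8, 139 to 254 (median 210.0) on Day 10 and 106 to 866 (median 285.7) on Day 12, and the log2 fold change of 0.93 ± 0.24 stayed under both limits (adjusted p = 1.16e-03). Female embryos d12_f_245 and d12_f_271 had the lowest NID1 of Day 12, 175 and 106 CPM, and without either one NID1 was called (1.02 and 1.05); it was also called with library size alone as the scaling (1.16). HSPG2 (NCBI Gene 100517288, chr6:79849691-79958283), which codes for the heparan sulfate proteoglycan perlecan, ranged from 217 to 347 CPM (median 305) on Day 8, 83.4 to 147 (median 110.7) on Day 10 and 154 to 483 (median 295) on Day 12. It was the only member that fell and then rose: no embryo of Day 10 reached the lowest of Day 8 or of Day 12, with a fall on Day 10 (-1.37 ± 0.17, adjusted p = 1.13e-07) and a rise by Day 12 (1.48 ± 0.18, adjusted p = 1.26e-08). From Day 8 to Day 12 its log2 fold change was 0.12 ± 0.17. AGRN (NCBI Gene 100621139, chr6:63366017-63398311), agrin, ranged from 31.5 to 50.2 CPM (median 44.2) on Day 8, 36.6 to 76.9 (median 46.1) on Day 10 and 42.4 to 80.7 (median 64.7) on Day 12 and was called in no comparison, the largest log2 fold change being 0.59 ± 0.12, adjusted p = 9.55e-05 from Day 8 to Day 12. COL18A1 (NCBI Gene 100624675, chr13:207907835-207984082), a collagen of basement membranes that carries heparan sulfate, ranged from 149 to 396 CPM (median 236) on Day 8, 167 to 422 (median 283) on Day 10 and 264 to 1243 (median 581) on Day 12. It rose from Day 10 to Day 12 (1.11 ± 0.22, adjusted p = 7.34e-05). Without female embryo d12_f_245, which had the highest level of Day 12, the log2 fold change was 0.95 and under the limit.

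On the interstitial side, fibronectin and 2 of the 3 fibulins rose by Day 12, and the fibrillar collagens in the table either fell or were not called. FN1 (NCBI Gene 397620, chr15:117658158-117737145), fibronectin, took the most reads of all members, with 951 to 2001 CPM (median 1197) on Day 8, 1162 to 3543 (median 2367) on Day 10 and 839.9 to 13492 (median 5170.2) on Day 12. The embryos of Day 12 formed 2 sets: d12_f_245, d12_f_271 and d12_m_307 had 1285, 840 and 1701 CPM, within or below the range of Day 10, and the other 7 had 4681 to 13492 CPM, above every embryo of Day 10. FN1 was called from Day 10 to Day 12 (1.43 ± 0.34, adjusted p = 5.79e-04) and not from Day 8 to Day 10 (0.80 ± 0.34, adjusted p = 0.0436). The former call was lost without any 1 of 10 embryos (d10_f_315, d10_f_336, d10_f_433, d10_m_318, d10_m_321, d10_m_435, d12_f_297, d12_f_299, d12_m_249 or d12_m_275), with log2 fold changes of 1.23 to 1.44 and adjusted p-values up to 0.00204. In the same 3 embryos KRT18, a keratin of the trophectoderm, was highest of Day 12, at 5053, 8126 and 5160 CPM against 1850 to 3405 in the other 7. KRT18 is 1 of 10 listed trophectoderm markers and was picked for this after its values were seen. The other markers are not given by embryo here, and of the whole list 2 rose and 4 fell from Day 10 to Day 12. The part of this KRT18 difference in the FN1 levels was not tested.

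FBLN2 (NCBI Gene 100621722, chr13:70757255-70830430), a fibulin of microfibrils and basement membranes, ranged from 86.4 to 162 CPM (median 122) on Day 8, 89.2 to 139 (median 115) on Day 10 and 262 to 982 (median 547) on Day 12. FBLN1 (NCBI Gene 100519144, chr5:3839498-3927178), which binds fibronectin, ranged from 34.4 to 68.4 CPM (median 43.3) on Day 8, 29.5 to 65.9 (median 46.3) on Day 10 and 69.3 to 320.3 (median 148) on Day 12. Both had all embryos of Day 12 above those of Day 10, and FBLN2 rose by 2.39 ± 0.18, adjusted p = 1.22e-12 and FBLN1 by 1.70 ± 0.20, adjusted p = 1.29e-08. LOXL2 (NCBI Gene 110256870, chr14:7435861-7540699), a lysyl oxidase that crosslinks type IV collagen, ranged from 2.79 to 9.96 CPM (median 6.65) on Day 8, 3.56 to 6.50 (median 5.73) on Day 10 and 21.3 to 88.9 (median 35.1) on Day 12, again without overlap, and rose by 2.86 ± 0.23 (SE; adjusted p = 4.30e-12). LOXL4 (NCBI Gene 100157207, chr14:109571942-109593408), another enzyme of this family, was at or under the floor of 3 reads in 9 embryos each of Days 8 and 10 and reached a median of 1.17 CPM on Day 12 (3.73 ± 0.67, adjusted p = 1.84e-05). Without 1 embryo this value lay between 3.59 and 4.50, the highest without male embryo d10_m_453. FBLN5, a fibulin of elastic fibres, had medians of 0.279, 0.363 and 0.507 CPM on Days 8, 10 and 12 and was called in no comparison.

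The fibrillins, which form microfibrils, were scarce. FBN2 (NCBI Gene 100048956, chr2:131150665-131370241) was at or under the floor in 9 of 10 embryos of Day 8, had 1.11 to 4.34 CPM in every embryo of Day 10, and no read in any embryo of Day 12. It rose from Day 8 to Day 10 (3.88 ± 0.63, adjusted p = 2.04e-05; 5.40 without male embryo d08_m_103, the 1 embryo of Day 8 above the floor), and with the floor taken as the level of each Day 12 embryo it was at least 13.3-fold lower on Day 12 than on Day 10 (adjusted p of the fit = 1.13e-07). FBN1 had medians of 0.0979, 0.242 and 0.525 CPM and was called in no comparison.

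The 4 fibrillar collagens of the table included no rise by Day 12. COL27A1 (NCBI Gene 102159686, chr1:254768576-254924893), a fibrillar collagen best known from cartilage, ranged from 13.5 to 30.1 CPM (median 16.1) on Day 8, 3.07 to 12.7 (median 5.84) on Day 10 and 0.369 to 8.39 (median 1.30) on Day 12. No embryo of Day 10 reached the lowest of Day 8, and it was the only member that fell in both intervals (-1.59 ± 0.36, adjusted p = 3.71e-04 and -1.78 ± 0.38, adjusted p = 1.60e-04). With library size alone as the scaling the second log2 fold change was -1.57 and no longer called. COL11A1 (NCBI Gene 397175, chr4:115638381-115841679), a chain of type XI collagen, ranged from 0.0743 to 1.24 CPM (median 0.628) on Day 8, 1.34 to 4.20 (median 2.73) on Day 10 and 0 to 0.120 (median 0) on Day 12. It rose from Day 8 to Day 10 without overlap (2.26 ± 0.36, adjusted p = 4.71e-06), and on Day 12 all 10 embryos were at or under the floor, which made it at least 17.6-fold lower than on Day 10 (adjusted p of the fit = 2.55e-12) and at least 3.62-fold lower than on Day 8. COL5A1, a chain of type V collagen, had medians of 2.90, 1.17 and 0.648 CPM and fell only over the whole period (-1.45 ± 0.34, adjusted p = 3.73e-04). COL5A2, its partner chain, had medians of 0.840, 0.986 and 0.732 CPM and was called in no comparison.

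The 2 collagens of the table that attach to fibrils were both at low levels. COL21A1 had medians of 0.817, 0.367 and 1.39 CPM and was called higher from Day 10 to Day 12 (1.59 ± 0.39, adjusted p = 7.06e-04), a call lost in 13 of the 30 fits without 1 embryo, with adjusted p-values up to 0.00246 (without male embryo d12_m_275). COL12A1 was at or under the floor in all embryos of Day 8, in 9 of Day 10 and in 4 of Day 12. It rose from Day 10 to Day 12 (3.17 ± 0.66, adjusted p = 1.23e-04; 4.03 without male embryo d10_m_453), and on Day 12 it was at least 4.17-fold higher than the floor of Day 8.

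**Figure D3:**
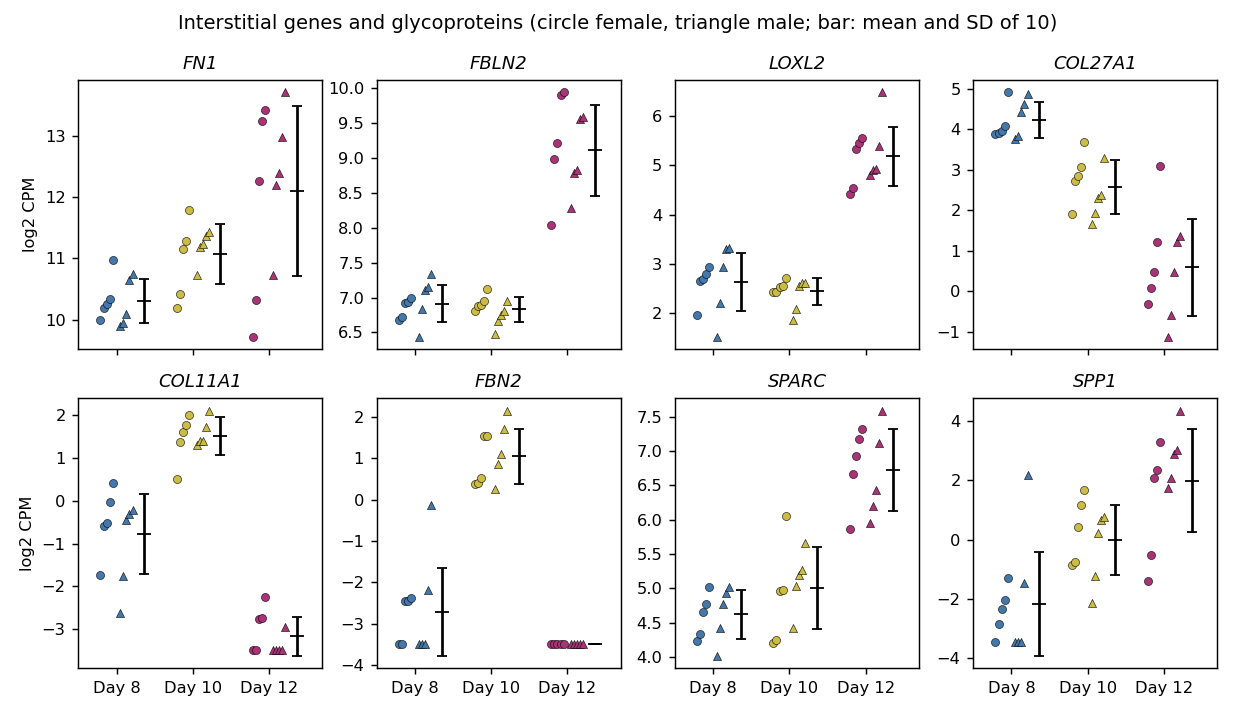
Level of 6 interstitial genes and of SPARC and SPP1 in log2 CPM on each day, 1 point per embryo (circles female, triangles male), with the mean and SD of the 10 embryos of a day. FN1 spread over more than the range of Day 10 on Day 12, COL27A1 stepped down at each day, and COL11A1 and FBN2 were highest on Day 10 and at or under the floor on Day 12.

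Among the 7 glycoproteins none was called from Day 8 to Day 10, where 14.1% of all genes were. From Day 10 to Day 12, 3 of them rose, against 14.9% of all genes. SPARC (NCBI Gene 595124, chr16:71368164-71380972), a collagen-binding protein of basement membranes, ranged from 16.1 to 32.5 CPM (median 26.2) on Day 8, 18.4 to 66.2 (median 31.9) on Day 10 and 58.0 to 193 (median 112) on Day 12. It rose by 1.72 ± 0.23 (SE; adjusted p = 1.09e-07), and Days 10 and 12 overlapped only between 58.0 and 66.2 CPM. ECM1 (NCBI Gene 100620701, chr4:98615776-98633081), a secreted glycoprotein that binds perlecan, varied little, with 67.9 to 81.4 CPM (median 72.2) on Day 8, 51.7 to 64.6 (median 58.2) on Day 10 and 68.8 to 102 (median 84.2) on Day 12. All embryos of Day 10 lay below all of Day 8 and all of Day 12, but the log2 fold changes were under the limit of 1, at -0.33 ± 0.065 on the way to Day 10 (adjusted p = 7.96e-05) and 0.57 ± 0.065 from there to Day 12 (adjusted p = 5.92e-09). SPP1 (NCBI Gene 397087, chr8:131077786-131085334), osteopontin, an adhesive ligand of integrins that the uterus of the pig also makes, was scarce, with 0 to 4.46 CPM (median 0.0763) on Day 8, 0.137 to 3.11 (median 1.17) on Day 10 and 0.289 to 20.5 (median 4.62) on Day 12. It was called from Day 8 to Day 12 (3.50 ± 0.81, adjusted p = 2.85e-04) and not from Day 10 to Day 12 (2.40 ± 0.76, adjusted p = 0.00743). Male embryo d08_m_136 had 4.46 CPM on Day 8, where the other 9 had at most 0.318, and without it the rise from Day 8 to Day 12 was 5.84, that from Day 8 to Day 10 was called (3.43), and that from Day 10 to Day 12 was called as well (2.40). VTN, vitronectin, had medians of 0.456, 0.424 and 1.31 CPM and rose from Day 10 to Day 12 (1.46 ± 0.34, adjusted p = 4.25e-04), a call lost without male embryo d10_m_333 or female embryo d12_f_245 (1.36 and 1.24). TNC, tenascin, was called in no comparison. Its values on Day 12 lay either between 6.73 and 10.0 CPM, in d12_f_289, d12_m_275, d12_m_276 and d12_m_286, or at 0.76 CPM or less, in the other 6. On Day 8 the TNC values were split as well. They were 2.67 to 3.86 CPM in d08_f_129, d08_f_130, d08_m_103, d08_m_133 and d08_m_136 and at most 0.247 CPM in the others. THBS2, a thrombospondin, had at most 5 reads in 9 embryos of Day 8 and in all of Day 10, 79 reads (2.17 CPM) in male embryo d08_m_103 of Day 8, and a median of 0.556 CPM on Day 12. From Day 8 to Day 12 it was not called with that embryo (1.49) and was without it (4.25). Its call from Day 10 to Day 12 (3.86 ± 0.97, adjusted p = 9.93e-04) was lost in 19 of the 30 fits without 1 embryo, with log2 fold changes of 3.30 (without d12_m_275) to 3.93 in these. THBS3 had medians of 0.452, 0.605 and 0.855 CPM and was called in no comparison.

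The 5 other collagens stood highest on Day 12, and each was called higher there than on Day 8, as were 22% of all genes. COL23A1 (NCBI Gene 100521775, chr2:79766260-80141296), a transmembrane collagen, ranged from 15.2 to 45.9 CPM (median 19.1) on Day 8, 17.1 to 76.6 (median 35.7) on Day 10 and 47.9 to 192 (median 107) on Day 12, and rose from Day 10 to Day 12 (1.39 ± 0.27, adjusted p = 4.33e-05). COL26A1 (NCBI Gene 100519542, chr3:9003126-9164074), a collagen with an EMI domain, ranged from 1.53 to 5.52 CPM (median 3.50) on Day 8, 12.04 to 45.4 (median 25.5) on Day 10 and 20.1 to 102.6 (median 57.7) on Day 12. It rose early, without overlap of Days 8 and 10 (3.03 ± 0.33, adjusted p = 4.76e-09), and its further log2 fold change of 0.96 ± 0.30 by Day 12 was under the limit (1.21 and called with library size alone as the scaling). COL17A1, the transmembrane collagen of hemidesmosomes, also rose early (4.49 ± 0.73, adjusted p = 6.14e-06; 3.55 without male embryo d10_m_453, which had 15.2 CPM), from a median of 0.0781 CPM, with 7 embryos of Day 8 at or under the floor, to 0.853 and then 4.33 CPM. COL7A1, the anchoring fibril collagen of epithelia, had medians of 0.842, 0.944 and 3.60 CPM and rose from Day 10 to Day 12 (1.99 ± 0.36, adjusted p = 1.83e-05). COL8A2, a network collagen, rose from a median of 0.0787 CPM, with 8 embryos of Day 10 at or under the floor, to 1.80 CPM (4.48 ± 0.50, adjusted p = 3.67e-09). COL4A3BP, the member that is no matrix gene, had medians of 59.7, 85.8 and 132 CPM and was called from Day 8 to Day 12 (1.12 ± 0.16, adjusted p = 3.66e-07).

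Basement membrane and interstitial matrix were set side by side as lists. From Day 10 to Day 12, where 14.9% of all genes rose and 8.39% fell, 12 of 16 basement membrane genes rose and 2 fell (LAMB2 and LAMB3), with a median log2 fold change of 1.56, while 7 of 14 interstitial genes rose and 3 fell (FBN2, COL11A1 and COL27A1), with a median of 1.01. The interstitial median depends on scarce genes. Among interstitial genes with a mean of at least 1 CPM the middle one was FN1, whose rise lay nearer to 1.56 than to 1.01. In 8 basement membrane genes every embryo of Day 12 lay above every embryo of Day 10 and in none below, where 8.4% and 8.2% of all genes were so placed. For the interstitial list 3 genes (FBLN1, FBLN2 and LOXL2) lay above and 2 below without overlap. FBLN2 is also a protein of basement membranes and LOXL2 crosslinks type IV collagen, so the border between the lists is not sharp. The lists were not compared with these genes moved. From Day 8 to Day 10 each list had 2 genes higher and 1 lower, near the 9.88% and 4.2% of all genes. The medians were 0.16 and 0.18, and the interstitial one turned to -0.094 when only genes with a mean of at least 1 CPM were kept. Over the whole period, where 22% of all genes rose and 10.4% fell, 12 basement membrane genes rose and none fell, with a median of 1.75, and 6 interstitial genes rose and 3 fell, with a median of 1.06 that became 1.80 under the same filter. The difference between the lists is a description and was not tested, since the genes of a list share the same embryos.

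**Figure D4:**
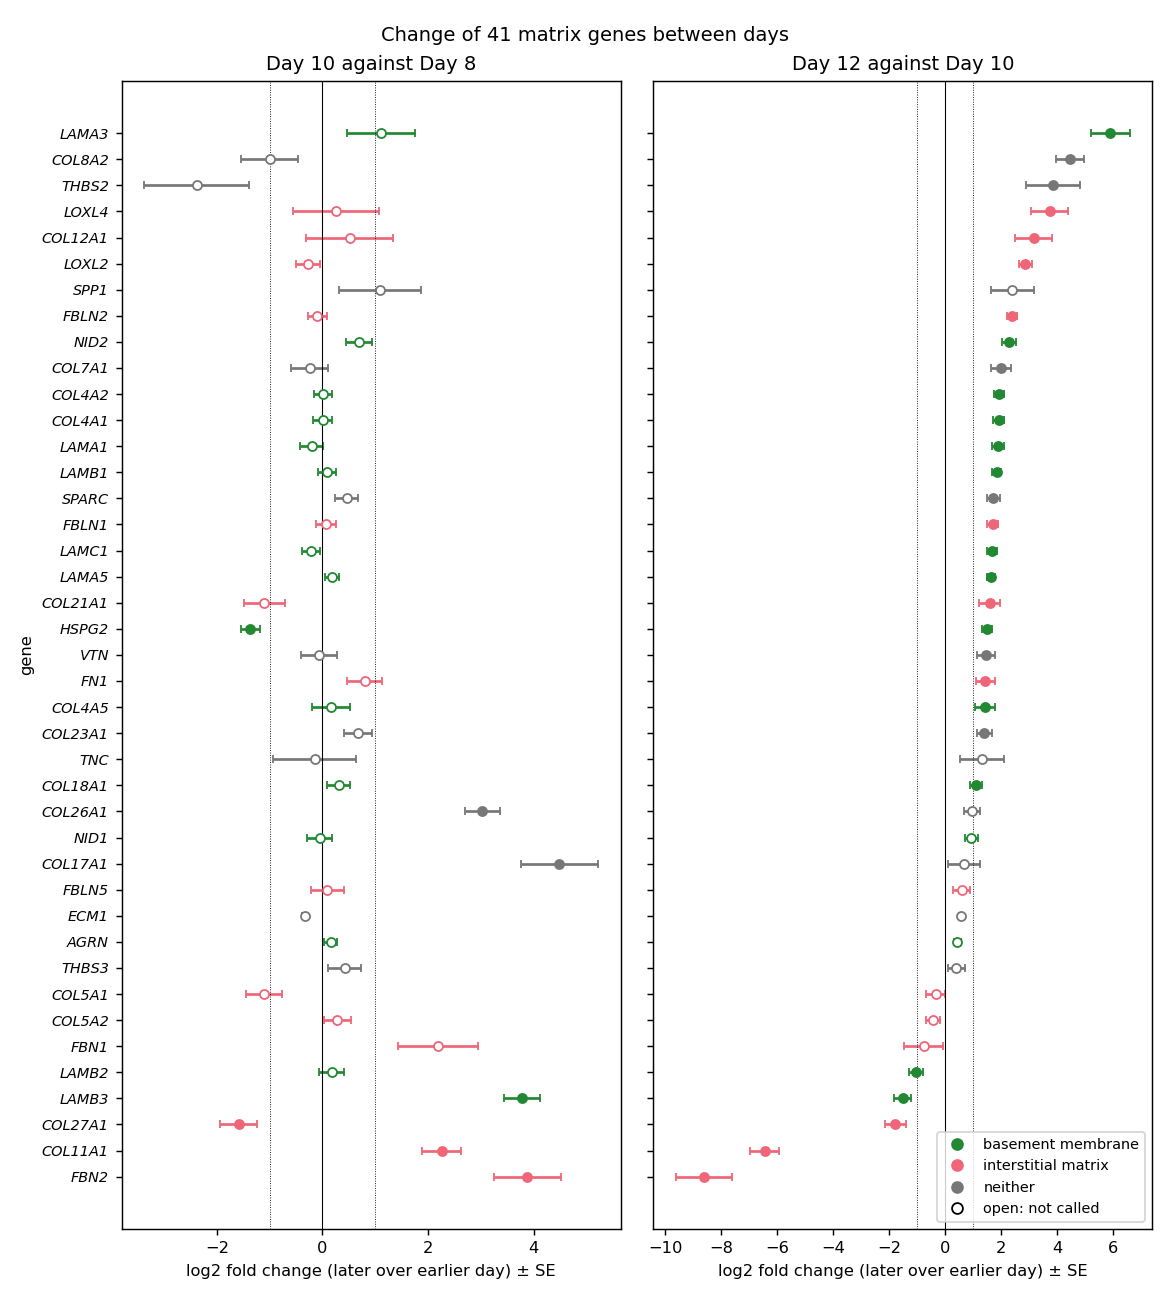
Log2 fold change ± SE of 41 matrix genes from Day 8 to Day 10 and from Day 10 to Day 12 (the horizontal scales differ), ordered by the latter; filled points were called, open points were not, and dotted lines mark a log2 fold change of 1 in either direction. On the right most basement membrane genes lie near 1.5 to 2, with LAMB2 and LAMB3 below 0; the values of COL11A1 and FBN2 there are fitted against Day 12 embryos at or under the floor and depend on the prior count.

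The reads of the 16 basement membrane genes summed to 1635 to 3141 CPM (median 2278) on Day 8, 1620 to 3081 (median 2137) on Day 10 and 3668 to 12328 (median 6186) on Day 12. No embryo of Day 12 overlapped the earlier days. The 14 interstitial genes summed to 1107 to 2219 CPM (median 1377), 1343 to 3767 (median 2538) and 1245 to 14478 (median 5767), of which FN1 made up a median of 86.6%, 93.0% and 89.0%. Such sums follow the most abundant and the longest genes and carry no correction for length. The basement membrane share of the sum of both lists was 54.99% to 66.3% (median 60.9%) on Day 8 and 43.7% to 57.5% (median 45.7%) on Day 10, with 1 embryo of Day 10 (d10_f_336) inside the range of Day 8. On Day 12 it was 43.6% to 51.3% in 7 embryos and 70.0%, 74.7% and 74.8% in d12_m_307, d12_f_271 and d12_f_245, the 3 embryos with little FN1. Without FN1 in the interstitial list the medians were 91.9%, 92.6% and 89.4%. The shift of the share between Days 8 and 10 therefore rested on FN1, whose own log2 fold change between these days was not called.

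**Figure D5:**
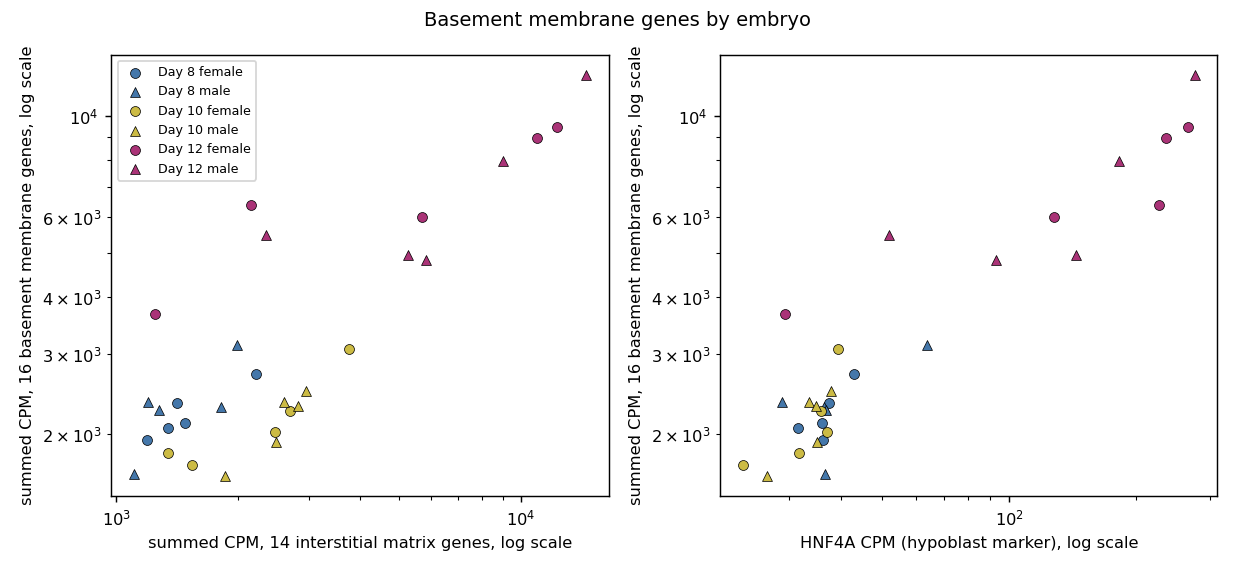
Summed CPM of the 16 basement membrane genes in each embryo against the summed CPM of the 14 interstitial genes (left) and against HNF4A, a hypoblast marker chosen after its values were seen (right), all on log scales, with colours for days and shapes for sexes. Embryos of Day 12 lie above all others, 3 of them far to the left of the rest in the left panel.

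Markers of the cell types that an embryo of this age holds were read beside these sums. From Day 10 to Day 12, 14.9% of all genes rose and 8.39% fell, which applies to each list of markers below. Of 12 hypoblast markers 10 were in the table, and 6 rose from Day 10 to Day 12, among them PDGFRA (2.52 ± 0.36, adjusted p = 3.85e-07) and HNF4A (2.28 ± 0.26, adjusted p = 8.48e-09), while DAB2 fell (-1.58 ± 0.10, adjusted p = 2.77e-14). GATA6 had medians of 139, 57.1 and 43.9 CPM and fell from Day 8 to Day 10 (-1.36 ± 0.14, adjusted p = 3.73e-09) and from Day 8 to Day 12 (-1.68 ± 0.15, adjusted p = 1.21e-11). The summed hypoblast markers ran from 1453 to 2416 CPM on Day 8, 2510 to 3910 on Day 10 and 2060 to 7163 on Day 12, and none was at 0 throughout a day. On each day the embryo with the highest basement membrane sum was also the highest in HNF4A and in PDGFRA: d08_m_121 with 3141, 63.9 and 106.2 CPM, d10_f_454 with 3081, 39.3 and 73.8 CPM, and d12_m_275 with 12328, 275.96 and 909.9 CPM. HNF4A and PDGFRA were singled out after their values were seen: of all 10 hypoblast markers, 9 were highest in d08_m_121 on Day 8, 3 in d10_f_454 on Day 10 and 3 in d12_m_275 on Day 12. The same embryos held the highest level of their day in 11, 12 and 9 of the 16 basement membrane genes. They were picked by the sum of these 16 genes, so these counts follow in large part from that choice. Of 10 trophectoderm markers, all in the table, 2 rose and 4 fell from Day 10 to Day 12, KRT18 the most (-2.21 ± 0.19, adjusted p = 2.40e-11), and their sum ran from 21673 to 26571 CPM on Day 8, 36308 to 53837 on Day 10 and 11359 to 34789 on Day 12. Of 7 epiblast markers, NANOG, SOX2, PRDM14 and NODAL were at or under the floor in every embryo of Day 12, and the sum of the list, mostly DPPA5 and SALL4, ran from 363 to 1297 CPM. Both listed endothelial genes in the table, PECAM1 and TIE1 of 6, rose (1.63 and 2.08), whereas the 1 leukocyte marker in the table of 6, LCP1, was not called (0.77). Early mesoderm markers were in the table for 5 of 10, and 2 of them rose and 2 fell from Day 10 to Day 12. HAND1, which trophectoderm also expresses, rose from a median of 66.0 to 1064 CPM and BMP4 from 0.489 to 6.78 CPM, while EOMES fell from a median of 2.81 CPM and T from 1.46 CPM to the floor or under it in 10 and 9 embryos of Day 12. ESR1 and ACP5, 2 of 6 endometrial markers, ran up to 4.92 and 14.1 CPM on Day 12, and HBB and ALAS2, 2 of 5 erythroid markers, up to 8.36 and 4.66 CPM. The part of any of these cell types in the matrix levels was not tested.

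The genes that fold, export, modify and crosslink matrix proteins rose by Day 12 in part. Of 13 prolyl and lysyl hydroxylases and related enzymes, none rose and 1 fell from Day 8 to Day 10, where 9.88% of all genes rose and 4.2% fell. From Day 10 to Day 12, 5 rose and 2 fell, against 14.9% and 8.39% of all genes. P3H1, a prolyl hydroxylase, and P3H4, a related protein without that activity, rose by 3.24 ± 0.24 and 2.55 ± 0.25 (SE), while P3H2 and COLGALT2 fell (-2.21 and -2.74). P4HB, the shared subunit of other prolyl hydroxylases, had medians of 1069, 955 and 1040.0 CPM and was not called. Of 10 chaperones and export factors 2 rose and none fell from Day 8 to Day 10, FKBP10 among them (1.25 ± 0.24). From Day 10 to Day 12, 4 rose and none fell: SERPINH1, the collagen chaperone, went from a median of 164.7 to 609 CPM (2.01 ± 0.22, adjusted p = 2.97e-09), and FKBP10, FKBP7 and SEC23A rose by 2.57, 1.91 and 1.24. All 4 genes of propeptide processing and crosslinking in the table, of 9 listed, rose: PXDN, the peroxidasin that crosslinks type IV collagen, from a median of 78.0 to 530.2 CPM (2.69 ± 0.24, adjusted p = 2.75e-11), PCOLCE by 2.32 ± 0.27, BMP1 by 1.91 ± 0.24 and TGM2, low on Day 10 with 7 embryos at or under the floor, by 6.23 ± 0.79. From Day 8 to Day 10 none of the 4 was called, where 14.1% of all genes were. In TGM2 the range on Day 12 was 0.434 to 58.1 CPM, the highest in female embryo d12_f_289.

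Of 12 listed receptors that bind matrix, other than integrins, 10 were in the table. From Day 10 to Day 12, 6 rose and none fell, against 14.9% and 8.39% of all genes. From Day 8 to Day 10, 1 rose and 1 fell, near the 9.88% and 4.2% of all genes. BCAM, a receptor of laminin alpha-5, went from 4.44 to 9.99 CPM (median 7.18) on Day 8, 13.8 to 48.8 (median 20.6) on Day 10 and 174 to 789 (median 394) on Day 12, and rose in both intervals (1.80 ± 0.24, adjusted p = 2.76e-07 and 4.04 ± 0.26, adjusted p = 1.96e-14). CD44, which binds hyaluronan and osteopontin, rose by 3.06 ± 0.33 (SE), the collagen receptor DDR1 by 1.70 ± 0.16 and the syndecan SDC3 by 1.76 ± 0.39. DAG1, dystroglycan, a receptor of laminin, perlecan and agrin, was the most abundant of those that rose, with medians of 587, 700.2 and 1576 CPM (1.25 ± 0.14, adjusted p = 7.10e-09). SDC4, a syndecan of cell contacts with fibronectin, fell from Day 8 to Day 10 (-1.69 ± 0.13, adjusted p = 3.99e-12).

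Between female and male embryos the edgeR quasi-likelihood test called no matrix gene on any day, while other tools made calls on Days 8 and 12. The tables of Days 8, 10 and 12 held 29, 34 and 36 of the 43 genes, and at an FDR of 0.05 none was called, against 0.658%, 0.223% and 0.123% of all genes of the tables (edgeR quasi-likelihood test, 5 against 5 embryos). At an unadjusted p under 0.05 there were 3 on Day 8, none on Day 10 and 1 on Day 12, against 4.59%, 2.36% and 22.7% of all genes. COL4A5, on the X chromosome, had 2.05 ± 1.18 CPM (SD, n = 5) in female and 4.23 ± 1.47 in male embryos of Day 8, and the log2 ratio of female to male was -1.01 ± 0.36 (SE; edgeR adjusted p = 0.672). On Days 10 and 12 it was -0.39 ± 0.35 and 0.28 ± 0.57. With CPM scaled within the table of that day, ECM1 was higher in every female than in every male embryo of Day 12, with 100.9 ± 5.72 against 81.7 ± 5.04 CPM (SD, n = 5) and a log2 ratio of 0.30 ± 0.11 (edgeR adjusted p = 0.198). The robust GLM of edgeR, which is the method the study used, called COL4A5 on Day 8 (-1.21) and TNC on Day 12 (-3.94), and DESeq2 called ECM1 on Day 12 (0.32) and none on Days 8 and 10. TNC was high on Day 12 in male embryos d12_m_275, d12_m_276 and d12_m_286 and in female embryo d12_f_289, and low in the others of both sexes. No member had a called interaction of sex and day, nor had any of the 13103 genes, and 1 member, ECM1, had an unadjusted p under 0.05, against 16.5% of all genes.

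The spread between embryos of 1 day was wider for matrix genes than for the median gene. Among genes with a mean of at least 1 CPM, the median coefficient of variation was 27.5% for 28 members against 13.8% for all genes on Day 8, 28.7% for 33 members against 17.9% on Day 10, and 49.7% for 35 members against 28.9% on Day 12. On Day 12 it was 11.9% for ECM1, 20.1% for AGRN, 41.9% for COL4A1, 71.1% for FN1 and 74.2% for LAMA3. No test was made of this difference, since the members share the embryos and differ in level from the other genes.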

How the data were processed

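Single-end RNA-seq libraries (Illumina TruSeq Stranded mRNA, HiSeq 2500) were made from 30 single pig embryos, 5 female and 5 male on each of Days 8, 10 and 12. Sex had been determined by the authors from embryo DNA with SRY qPCR. The authors trimmed reads with Trim Galore, removed 3 bases at the 5′ end, mapped reads in Galaxy to NCBI Sus scrofa 11.1 and filtered genes by CPM. The aligner, the counter, its strand setting and the value of the cutoff are not given in the sources used here. The deposited tables hold raw read counts per NCBI gene, with no normalization, for 13103 genes in all embryos and for separate sets of genes on each day, and no mean or fold change of the authors.

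Days were compared in the table of all embryos with the edgeR quasi-likelihood F test (robust dispersion, TMM factors, 3 day groups of 10 in 1 fit, Benjamini-Hochberg adjustment over all genes). A gene was called at an FDR under 0.001 with an absolute log2 fold change over 1. Sexes were compared within the table of each day, 5 against 5, at an FDR under 0.05, and the interaction of sex and day in a fit of 6 groups. All p-values printed are two-sided and edgeR's, adjusted over the whole table. The SE is the log2 fold change over the square root of F. CPM values are TMM-scaled, log2 levels use a prior count of 2, and a gene at 3 reads or fewer was taken as at the floor. Totals per embryo ran from 6068212 to 34002508, and floors cover counting error only. Of the 43 members, 24 had 10 or more reads in every embryo. Symbols and positions came from the RefSeq gene table of Sscrofa11.1, which matched all 13103 identifiers. No transcript lengths or sequences were at hand, so levels of different genes were not compared per length.

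The members, the lists and the tests were chosen with earlier results of these data known. One member enters the counts, medians and sums of the lists but is not reported here by itself. Genes given one by one were the most abundant of each class, the 5 members with the largest rise and fall in each comparison of days, chains of laminin and type IV collagen, NID1, NID2, HSPG2, AGRN, SPP1, SPARC, FN1, VTN, TNC and ECM1, COL4A5 in the comparison of sexes, and up to 4 called genes of each further list. FBLN5, FBN1, THBS3, COL7A1 and COL4A3BP were added after their values were seen, as were P4HB, DAG1, SDC4, LCP1 and the further cell type markers. Alternatives were the robust GLM of edgeR (the method of the study), DESeq2, RLE factors, library size alone, filters on low genes, fits of only the days compared, sex as a covariate, embryos of only 1 sex, a threshold of 1 on the log2 scale inside the test, prior counts of 0.5 and 5, changes of the lists, and each embryo left out. The model fits were tested on simulated data. Model fits ran in R 4.3.3 (edgeR 4.0.16, limma 3.58.1, DESeq2 1.42.0). Summaries and figures were made in Python 3.11.15 (pandas 2.3.3, numpy 2.4.6, matplotlib 3.10.9, scipy 1.17.1).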

Additional observations from a re-analysis of the deposited data

Results flagged for a closer look

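In 26 of 132 sets of 10 embryos (a member or a sum of a list on 1 day), 19.7%, the highest embryo lay apart from the others by Dixon's criterion. For normal and independent values the criterion would flag about 1 in 20 sets. CPM values cannot be negative and can be skewed upward, and the sets share the same embryos. The 19.7% can therefore not be judged against that rate. Each time the embryo set apart was the highest and not the lowest.

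On Day 8 male embryo d08_m_103 stood apart in 5 members: COL17A1 at 0.384 CPM, COL7A1 at 4.36, FBN1 at 0.795, FBN2 at 0.823 and THBS2 at 2.17. It also had the highest ESR1 of its day, 1.92 CPM against at most 0.21 in the others. Male embryo d08_m_136 stood apart in LAMA3 (12.2 CPM) and SPP1 (4.46). COL18A1 was highest in d08_m_121 (396 CPM) and COL21A1 in female embryo d08_f_124 (1.88 CPM).

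On Day 10 male embryo d10_m_453 stood apart in COL12A1 (0.289 CPM), COL17A1 (15.2), FBN1 (4.05) and LOXL4 (0.325), and female embryo d10_f_454 in AGRN (76.9), COL4A2 (269) and NID2 (174). COL21A1 reached 0.935 CPM in d10_f_336.

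On Day 12 female embryo d12_f_245, the smallest library, stood apart in COL27A1 (8.39 CPM), FBLN1 (320.3) and VTN (3.33). Male embryo d12_m_275 did so in SPP1 (20.5) and THBS2 (3.10), and d12_m_307 in LOXL2 (88.9). LAMA3 reached 611 CPM in d12_m_276 and COL7A1 10.3 CPM in d12_f_289. COL11A1 stood at 0.120 CPM in d12_f_271, which is 2 reads and under the floor.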

How the results depend on the processing

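The number of members called held within 1.5 times the reported one under the robust GLM, DESeq2, RLE factors, library size alone, both filters, sex as a term and 2 days in the fit. It was 4 in place of 8 from Day 8 to Day 10, and 15 in place of 30 from Day 10 to Day 12, when tested against a log2 fold change of 1. With female embryos only it was 4 and 19, and with male embryos only 4 and 16, where each fit holds fewer embryos. No log2 fold change of a called matrix gene turned its direction under DESeq2, RLE factors, library size alone or without 1 embryo. Under the other alternatives the direction of single genes was not checked. Over the fits without 1 embryo, 3678 values of single members kept their side of the threshold, 91 lost a call and 11 gained one. Leaving out 1 embryo at a time gave 8 to 10, 24 to 30 and 29 to 31 called members for Days 8 to 10, 10 to 12 and 8 to 12, and 0 in the comparisons of sexes and in the interaction. Library size alone as the scaling moved the median log2 fold change of all genes from 0.029 to -0.15 for Days 8 to 10 (70.2% of calls higher against 55.9%) and from 0.043 to 0.24 for Days 10 to 12. Under it NID1 (1.16) and COL26A1 (1.21) were also called from Day 10 to Day 12, and LAMB2 (-0.81) and COL27A1 (-1.57) were not. DESeq2 also called FBN2 lower from Day 8 to Day 12 (-3.88), as did 5 fits without 1 embryo of Day 8.

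The median of the interstitial list was -0.094 in place of 0.18 from Day 8 to Day 10, and 1.80 in place of 1.06 from Day 8 to Day 12, when only genes with a mean of at least 1 CPM were kept. Without FN1 the basement membrane share was 91.9%, 92.6% and 89.4% on Days 8, 10 and 12. Between sexes the robust GLM called 1 member on Day 8 (COL4A5, adjusted p = 0.0166) and 1 on Day 12 (TNC, adjusted p = 0.0190), and DESeq2 1 on Day 12 (ECM1, adjusted p = 0.0498). Over the other alternatives the lowest adjusted p of a member lay between 0.343 and 0.682 on Day 8 and between 0.194 and 0.222 on Day 12. Why these tools differ was not tested. THBS2 was called from Day 8 to Day 12 without male embryo d08_m_103 (4.25), and VTN was not without d08_f_109, d08_f_124, d08_m_111 or d12_f_245 (1.18 to 1.36). Levels per length were not run, for want of transcript lengths. No paired analysis was possible because the groups share no replicate numbers and the gilt of an embryo is not given. The small library of d12_f_245 sets the highest floor, 0.434 CPM, so that values of genes under about 1 CPM rest on few reads in it.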
